A study of Danio rerio with 24 samples.

Results

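In this series, 10 genes of extracellular matrix breakdown and of leptin signaling were followed in RNA-Seq of whole zebrafish larvae: the matrix metalloproteinase genes *mmp2*, *mmp9*, *mmp13a*, *mmp13b* and *mmp14b*, the inhibitor genes *timp2a*, *timp2b*, *timp4.1* and *timp4.2*, and leptin b (*lepb*). The genes were chosen by symbol. The 10 symbols matched 11 of the 26878 genes in the tables, because *mmp13a* stands for 2 neighbouring Ensembl genes. The list was drawn up with results of these tables in view, so the calls describe these genes and are no independent support for their choice. Each of 6 groups had 4 libraries. WT larvae carry no transgene. Gal4 larvae carry huC:gal4 with a red lens reporter (gcry:RFP), in which the *elavl3* (huC) promoter makes the yeast transcription factor Gal4 in neurons. The fynY531F larvae carry the same driver together with UAS:fynY531F and a green lens reporter (gcry:GFP), so that neurons make Fyn kinase in a constitutively active form. All 3 were sampled at 3 and 5 days post-fertilization (dpf), and each library was made from a pool of whole larvae. The driver therefore acts in neurons while the RNA comes from every tissue, and in such samples more cells of a type and more RNA per cell cannot be told apart. By the study's methods 1 UAS:fynY531F line served for such experiments.

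Matrix metalloproteinases are zinc-dependent enzymes that cut collagens, gelatins and other proteins of the extracellular matrix, most of them secreted as inactive proenzymes. Tissue inhibitors of metalloproteinases (Timps) bind the active enzymes and block them, and in mammals TIMP2 also takes part in the activation of proMMP2 by membrane-bound MMP14. Leptin is a cytokine-like hormone that signals through its receptor, Jak2 and Stat3, with Socs3 as the inhibitor that Stat3 switches on. Zebrafish have 2 leptin genes, *lepa* and *lepb*, and *lepb* is known from regenerating fin and heart.

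The total count per library lay between 11386498 and 30549128, with a median of 13262473. Replicate 3 of Gal4 at 5 dpf stood apart from all others, with a TMM scaling factor of 0.598 where the other 23 libraries lay between 0.936 and 1.09. The 5 dpf results of the listed genes against Gal4 larvae are therefore given with and without it. Counts of *fyna* matched the labels, with 823 to 972 CPM (counts scaled to a common library size of 1e+06) in fynY531F and 69.1 to 81.9 CPM in Gal4 larvae at 3 dpf, and 141 to 271 CPM against 84.8 to 92.2 CPM at 5 dpf. Levels are CPM scaled with TMM factors, given as mean ± SD, and differences come from the quasi-likelihood test of edgeR. P-values were adjusted by the method of Benjamini and Hochberg over all genes tested, a gene being called at an adjusted p under 0.05.

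Among the genes of the list, *timp2b*, *timp4.1* and *lepb* were higher in fynY531F than in Gal4 larvae at 3 dpf, and *mmp9* was lower. At 5 dpf, *mmp2*, *mmp14b* and *timp2b* were higher. At 3 dpf 4 of the 9 members tested were called, 3 higher and 1 lower, beside 18.6% of all genes tested (8.88% higher and 9.73% lower). Of these, *lepb* passed the filter on low counts through the fynY531F libraries alone and so had to differ, which leaves 3 calls among the other 8. At 5 dpf 3 of 9 were called, all higher, beside 4.60% of all genes (2.00% higher), and without replicate 3 of Gal4 5 of 9 were called, beside 22.7% of all genes. The median log2 fold change of the members tested was 0.03 at 3 dpf and 0.77 at 5 dpf, against 0.00 and -0.01 over all genes. The libraries of the 2 groups did not overlap in 4 of 9 members at 3 dpf, beside 22.5% of all genes tested. Again *lepb* was among these 4 and had to be, having passed the filter through the fynY531F libraries alone. At 5 dpf the libraries did not overlap in 5 of 9 members, beside 20.8% of all genes tested.

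**Figure D1:**
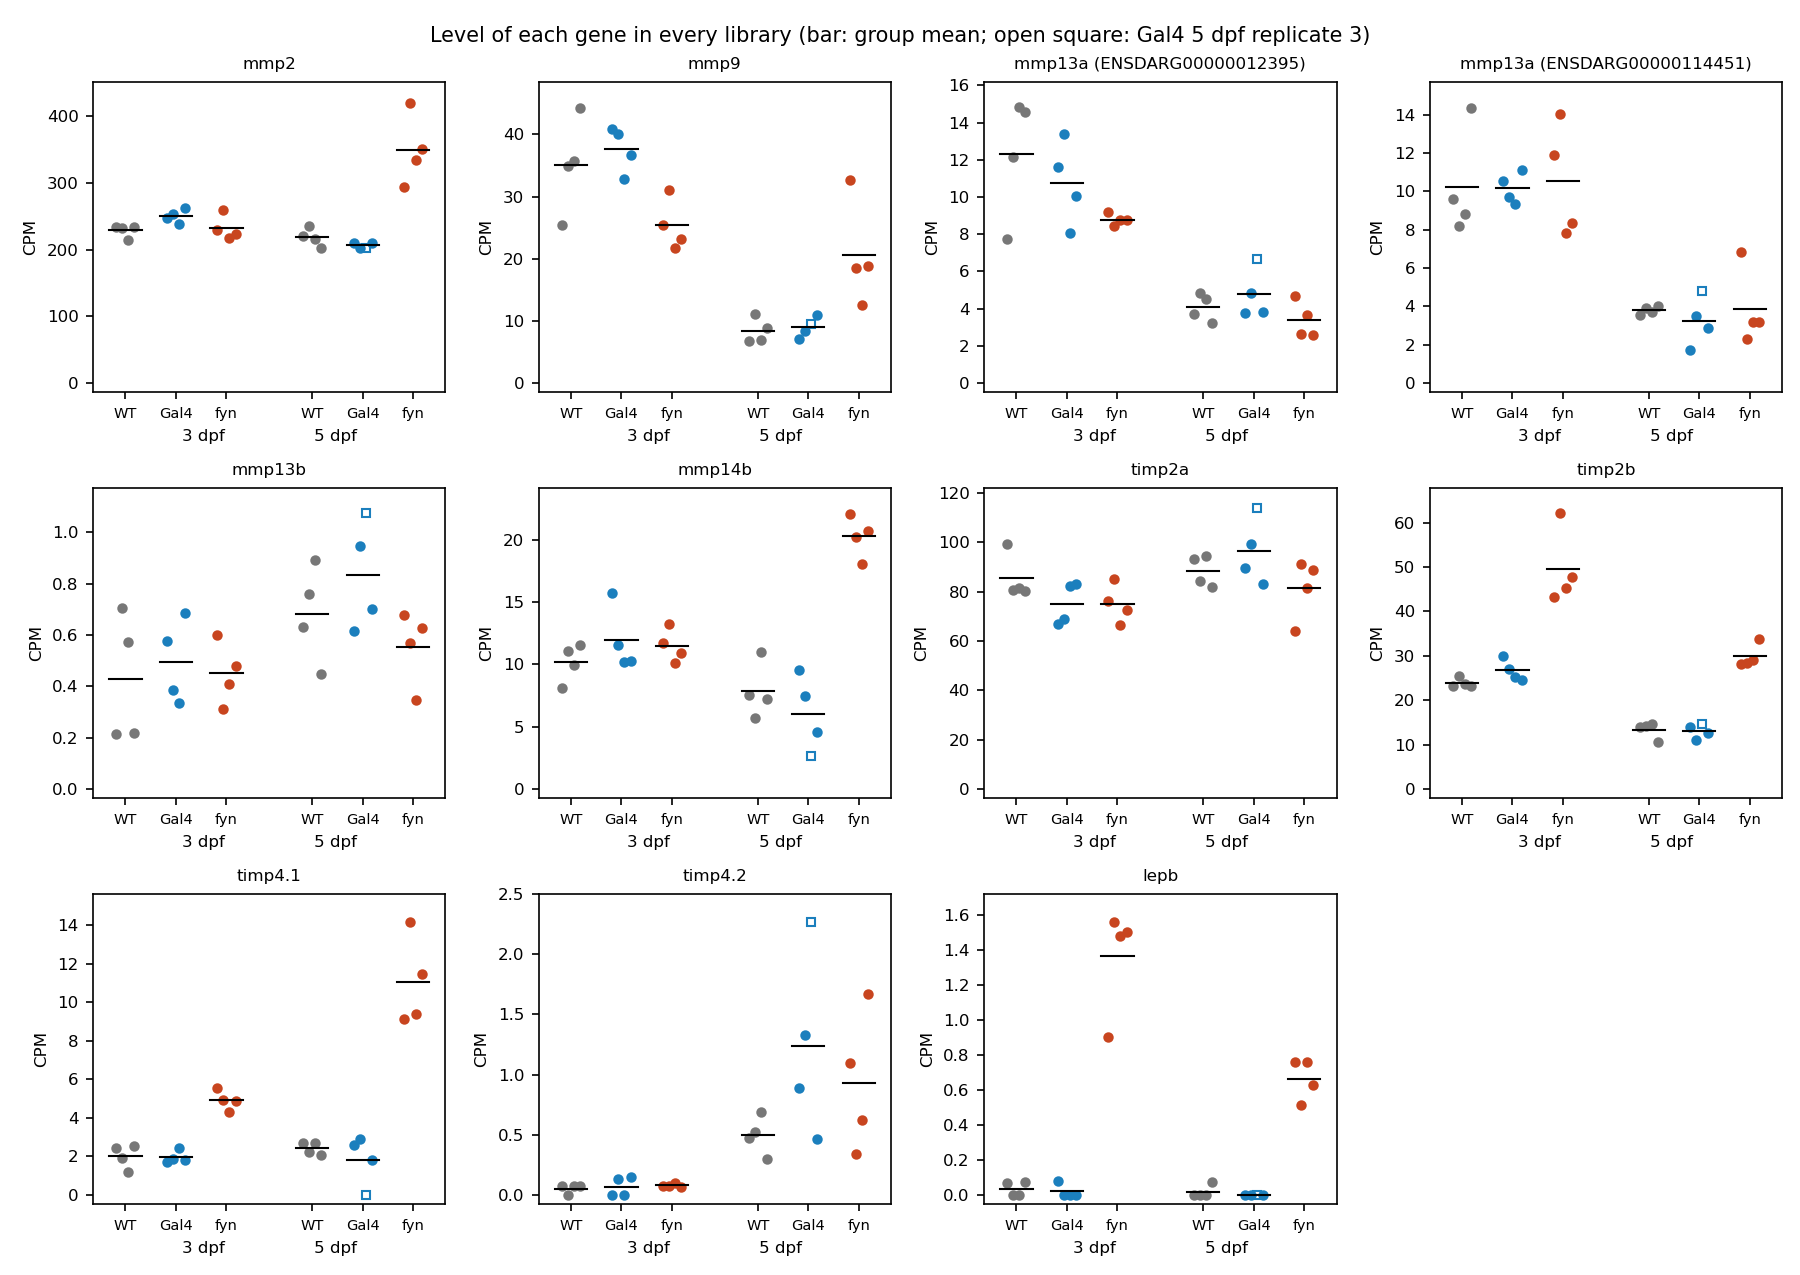
Level in CPM (vertical axes, linear, from 0) of each of the 11 genes in every library, by genotype and age; "fyn" stands for fynY531F, black bars are group means and the open square is replicate 3 of Gal4 at 5 dpf. The fynY531F libraries lie above all control libraries of the same age for *timp2b*, *timp4.1* and *lepb* at both ages, and for *mmp2*, *mmp9* and *mmp14b* at 5 dpf.

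The gelatinase gene *mmp2* (ENSDARG00000017676, GRCz11 chromosome 7, 35410050-35432901) had the highest level of the members per length of transcript, at 68.1 to 115 CPM per kilobase across the group means. At 5 dpf the 4 fynY531F libraries held 293, 419, 334 and 351 CPM of *mmp2*. The Gal4 libraries held 210, 203, 202 and 211 CPM. The WT libraries lay between 202 and 235 CPM, so the fynY531F libraries were above all 8 control libraries. The fold was 1.70 over Gal4 (log2 0.77 ± 0.14 SE, edgeR adjusted p = 0.0177) and 1.60 over WT (log2 0.68 ± 0.10, adjusted p = 0.00082). Without replicate 3 of Gal4 the log2 difference was 0.75 (adjusted p = 0.00204). The call against Gal4 was lost in 5 of the 8 fits that left out 1 library, with adjusted p up to 0.0755. At 3 dpf *mmp2* was at 232 ± 18.5 CPM in fynY531F, 250 ± 9.71 CPM in Gal4 and 229 ± 9.53 CPM in WT larvae, and the fynY531F libraries overlapped those of both controls (adjusted p = 0.431 and 0.87).

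Membrane-bound Mmp14, which in mammals activates proMMP2 at the cell surface, is encoded in zebrafish by *mmp14a* and *mmp14b*. *mmp14b* (ENSDARG00000008388, chromosome 2, 38161318-38183641) held 22.1, 20.2, 18.1 and 20.7 CPM in the fynY531F libraries at 5 dpf. In the Gal4 libraries it held 9.56, 7.44, 2.63 and 4.60 CPM, with the lowest value in replicate 3, and in WT between 5.72 and 11.04 CPM. All fynY531F libraries were above all controls, by 3.32-fold over Gal4 (log2 1.73 ± 0.36, adjusted p = 0.029) and by 2.57-fold over WT (log2 1.36 ± 0.17, adjusted p = 0.00027). Without replicate 3 of Gal4 the difference was 1.48 on the log2 scale (adjusted p = 0.00098), while 6 of the other 7 fits that left out 1 library lost the call, with adjusted p between 0.0717 and 0.0935. At 3 dpf the 3 genotypes overlapped, with 11.5 ± 1.35 CPM in fynY531F, 11.9 ± 2.60 CPM in Gal4 and 10.2 ± 1.55 CPM in WT larvae. The paralog *mmp14a*, no member of the list, held 98.7 CPM in fynY531F and 108 CPM in Gal4 larvae at 3 dpf, with 115 and 102 CPM at 5 dpf, and was called at neither age (adjusted p = 0.286 and 0.421).

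The second gelatinase gene, *mmp9* (ENSDARG00000042816, chromosome 8, 24281512-24295947), was lower in fynY531F larvae at 3 dpf and higher at 5 dpf. At 3 dpf its libraries held 25.4, 31.1, 21.7 and 23.2 CPM in fynY531F and 40.9, 40.0, 32.9 and 36.7 CPM in Gal4 larvae, with no overlap. The WT libraries lay between 25.5 and 44.3 CPM and overlapped the fynY531F libraries. The log2 difference was -0.55 ± 0.11 from Gal4 (adjusted p = 0.00427) and -0.48 ± 0.15 from WT (adjusted p = 0.029). The call against WT was lost in 6 of the 8 fits that left out 1 library, with adjusted p up to 0.0934. Both calls were lost when all 6 groups shared 1 fit, with adjusted p of 0.152 against Gal4 and 0.202 against WT.

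At 5 dpf *mmp9* held 32.6, 18.5, 12.6 and 18.8 CPM in fynY531F, 7.10, 8.34, 9.45 and 10.9 CPM in Gal4, and 6.70, 11.1, 6.99 and 8.89 CPM in WT libraries. The fynY531F libraries spread over 2.59-fold among themselves, with replicate 1 the highest, and all were above the controls. The fold over WT was 2.42 (log2 1.27 ± 0.27, adjusted p = 0.00579). Against Gal4 the log2 difference was 1.21 ± 0.30 and missed the threshold (adjusted p = 0.0579). It was called without replicate 3 of Gal4 (1.23 ± 0.29, adjusted p = 0.0163) and by DESeq2 (adjusted p = 0.00395).

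**Figure D2:**
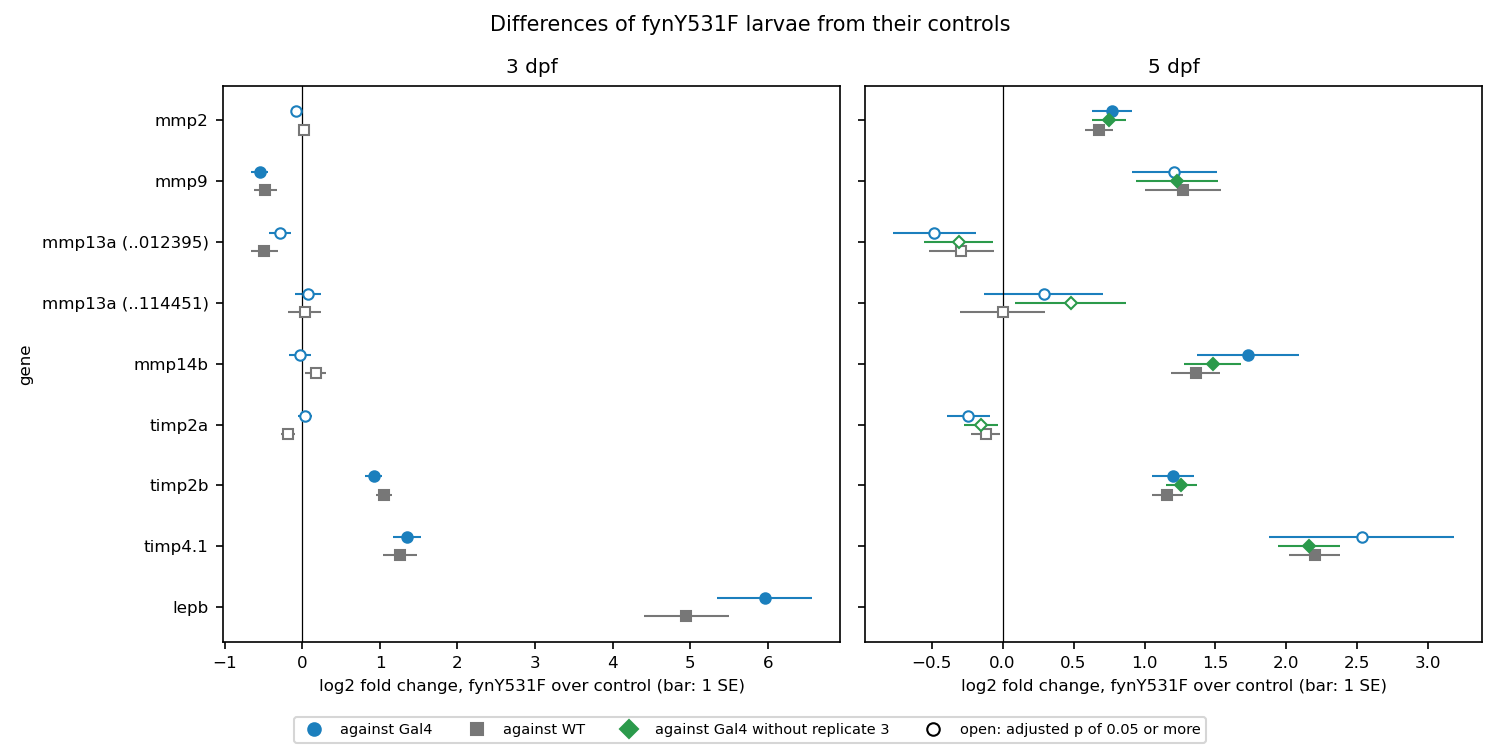
Log2 fold change (horizontal axes, bars are 1 SE) of fynY531F over Gal4 larvae (circles), over WT larvae (squares) and, at 5 dpf, over Gal4 larvae without replicate 3 (diamonds), for the members tested at 3 dpf; filled symbols have an adjusted p under 0.05. *mmp9* is at -0.55 against Gal4 at 3 dpf and at 1.21 at 5 dpf, while *mmp2* and *mmp14b* leave 0 at 5 dpf alone; *lepb* has no symbol at 5 dpf because it failed the count filter there.

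Collagenase 3 (Mmp13) cuts fibrillar collagens, and its zebrafish gene *mmp13a* is known from wounded and regenerating tissue. The tables hold *mmp13a* as ENSDARG00000012395 (chromosome 10, 38593645-38602561) and as ENSDARG00000114451 (chromosome 10, 38610741-38620514), both on the plus strand. The 2 genes share a symbol and lie side by side, so reads that match both may have been divided between them or dropped, and neither value is certain. ENSDARG00000012395 was at 8.78 ± 0.305 CPM in fynY531F, 10.8 ± 2.25 CPM in Gal4 and 12.3 ± 3.29 CPM in WT larvae at 3 dpf. Its difference from WT was called (log2 -0.49 ± 0.17, adjusted p = 0.047), though the libraries overlapped and 7 of the 8 fits that left out 1 library lost the call (adjusted p up to 0.147). Against Gal4 it was not called (log2 -0.29 ± 0.14, adjusted p = 0.173). ENSDARG00000114451 was at 10.5 ± 2.97, 10.2 ± 0.816 and 10.2 ± 2.81 CPM in the same order and was called in no comparison of genotypes. At 5 dpf neither *mmp13a* gene was called, with means between 3.22 and 4.77 CPM, nor was either without replicate 3 of Gal4 (adjusted p = 0.382 and 0.398). *mmp13b* (ENSDARG00000100794, chromosome 15, 33825750-33834577) had between 3 and 22 counts in every library, or 0.428 to 0.835 CPM across the group means. It passed the filter on low counts only in Gal4 against WT at 5 dpf, where it was not called (adjusted p = 0.844).

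The inhibitor gene *timp2b* (ENSDARG00000075261, chromosome 3, 57632965-57666996) was higher in fynY531F larvae at both ages. At 3 dpf the libraries held 43.2, 62.1, 45.3 and 47.9 CPM in fynY531F, 30.1, 27.0, 25.3 and 24.6 CPM in Gal4, and 23.3 to 25.5 CPM in WT larvae. At 5 dpf they held 28.1, 28.5, 29.1 and 33.9 CPM in fynY531F, 13.9, 11.1, 14.6 and 12.7 CPM in Gal4, and 10.6 to 14.7 CPM in WT larvae. No control library reached a fynY531F library of its age. The fold over Gal4 was 1.89 at 3 dpf (log2 0.92 ± 0.11, adjusted p = 0.00015) and 2.30 at 5 dpf (log2 1.20 ± 0.15, adjusted p = 0.0038; 1.26, adjusted p = 1.2e-04, without replicate 3 of Gal4). Over WT it was 2.06 at 3 dpf (adjusted p = 1.7e-05) and 2.23 at 5 dpf (adjusted p = 5.8e-05). The difference between the ages of the fold over Gal4 was 0.30 ± 0.19 and not called (adjusted p = 0.424; 0.36, adjusted p = 0.16, without that library).

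Its paralog *timp2a* (ENSDARG00000061226, chromosome 12, 33990947-34035364) was measured at higher counts, between 757 and 2311 per library. Per length it lay at 27.3 CPM per kilobase in WT larvae at 3 dpf, where *timp2b* lay at 6.78 CPM per kilobase. At 3 dpf *timp2a* held 75.0 ± 7.83 CPM in fynY531F and 75.2 ± 8.59 CPM in Gal4 larvae, and at 5 dpf it held 81.4 ± 12.2 and 96.5 ± 13.5 CPM. Its log2 difference was 0.03 ± 0.09 at 3 dpf (adjusted p = 0.887) and -0.24 ± 0.15 at 5 dpf (adjusted p = 0.432; -0.15, adjusted p = 0.387, without replicate 3 of Gal4), and it was called in none of the 10 comparisons of the main fit. Leaving out replicate 2 of fynY531F at 3 dpf gave a call against WT (log2 -0.26, adjusted p = 0.0383).

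*timp4.1* (ENSDARG00000111805, chromosome 11, 691734-701305) was the Timp gene of the list with the highest fold over the controls. At 3 dpf its counts were 74, 63, 84 and 71 in fynY531F, 21, 58, 29 and 24 in Gal4, and 34, 27, 17 and 35 in WT libraries. Scaled to CPM, fynY531F libraries held 4.30 to 5.57, Gal4 libraries 1.73 to 2.44 and WT libraries 1.22 to 2.56, without overlap. The fold was 2.55 over Gal4 (log2 1.35 ± 0.18, adjusted p = 0.00026) and 2.40 over WT (log2 1.26 ± 0.22, adjusted p = 0.00108).

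At 5 dpf the counts of *timp4.1* were 108, 249, 136 and 164 in fynY531F, 38, 68, 0 and 23 in Gal4, and 34, 38, 39 and 28 in WT libraries. The 0 was in replicate 3 of Gal4, which had 13985939 counts in all, and the other 3 Gal4 libraries lay at 1.79 to 2.93 CPM against 9.14 to 14.2 CPM in fynY531F. Over WT the fold was 4.59 (log2 2.20 ± 0.18, adjusted p = 2.2e-05). Over Gal4 the log2 difference of 2.53 ± 0.65 missed the threshold (adjusted p = 0.0664). Leaving out replicate 3 gave 2.16 ± 0.22 (adjusted p = 2.5e-04).

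Both *timp4.1* and *timp4.2* lie within the span of *syn2b*, a synapsin gene of neurons on the opposite strand (chromosome 11, 675296-762721), as TIMP genes lie within synapsin genes in mammals. The strand setting of the counting was not stated, so reads of *syn2b* within *timp4.1* or *timp4.2* exons could not be told apart. At 3 dpf *syn2b* itself held 18.5 CPM in fynY531F and 20.6 CPM in Gal4 larvae, with 53.7 and 57.3 CPM at 5 dpf, and was called at neither age (log2 -0.13 and -0.09, adjusted p = 0.363 and 0.876). *timp4.2* (ENSDARG00000102617, chromosome 11, 705727-711032), in the same span, had 5 counts over the 4 fynY531F libraries, 6 over Gal4 and 3 over WT at 3 dpf, and 52, 69 and 29 at 5 dpf. Its ratio of fynY531F to Gal4 at 5 dpf, by counts over library totals, was 0.84 (95% interval 0.574 to 1.22, exact conditional binomial, counting error only), and edgeR gave -0.37 ± 0.58 on the log2 scale (adjusted p = 0.773; -0.04, adjusted p = 0.967, without replicate 3). The ratio of *timp4.2* to WT at 5 dpf was 1.81 (interval 1.13 to 2.96), but the libraries overlapped, with 0.342 to 1.67 CPM in fynY531F and 0.299 to 0.686 CPM in WT larvae, and the difference was not called with no filter (adjusted p = 0.245). The next gene of the name, *timp4.3*, no member of the list, was at 10.8 CPM in fynY531F and 21.2 CPM in Gal4 larvae at 5 dpf (log2 -0.95 ± 0.32, adjusted p = 0.144; -0.57, adjusted p = 0.0413, without replicate 3). The *timp2b* span is crossed on the other strand by CT573423.1 and the *timp2a* span on its own strand by BX279525.1, both under 0.5 CPM in every group mean.

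*lepb* (ENSDARG00000045548, chromosome 4, 19031768-19033805) was found almost only in fynY531F larvae. At 3 dpf its counts were 12, 20, 29 and 22 in fynY531F, 1, 0, 0 and 0 in Gal4, and 1, 0, 0 and 1 in WT libraries. At 5 dpf they were 9, 9, 11 and 9 in fynY531F, 0 in all 4 Gal4 libraries, and 0, 0, 0 and 1 in WT libraries. Every fynY531F library was above every control library at both ages. By counts over library totals, the ratio to Gal4 at 3 dpf was 97.9 (95% interval 17.1 to 3913) and that to WT was 37.8 (interval 10.2 to 318). For Gal4 at 5 dpf, 3 counts over the 4 libraries were taken as the limit that a count of 0 allows. The 38 counts of *lepb* in fynY531F larvae were 14.1-fold above that limit, a value that leaves out the counting error of the 38. The ratio of *lepb* to WT at 5 dpf was 38.4 (interval 6.49 to 1556). The intervals cover counting error only.

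In the test across all genes, *lepb* was called at 3 dpf against Gal4 (adjusted p = 4.1e-05) and WT (adjusted p = 4.2e-05), where only the group in which it was high carried it past the filter, so the calls add nothing to its counts. At 5 dpf it failed the filter on low counts and was not tested in the main fit. With no filter it was called there against Gal4 (adjusted p = 0.0112) and WT (adjusted p = 0.00071), and DESeq2 gave adjusted p of 3.8e-05 and 0.00022. Within fynY531F larvae *lepb* was lower at 5 than at 3 dpf, with 38 against 83 counts in similar totals (log2 -1.05 ± 0.27, adjusted p = 0.00827). Here *lepb* passed the filter through the 3 dpf libraries, where it was high, so this call too adds nothing to its counts. Its mean levels were 1.36 ± 0.309 CPM and 0.665 ± 0.12 CPM at the 2 ages, and it was the member with the fewest counts among those called.

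The second leptin gene, *lepa*, and the genes downstream of the receptor were measured beside *lepb*. Of 9 symbols of the leptin pathway 7 were in the tables and all were tested at 3 dpf. Of these, 5 were higher in fynY531F than in Gal4 larvae and none was lower, beside 18.6% of all genes called (8.88% higher). The median log2 fold change was 1.25 (0.00 over all genes). Among the 5 was *lepa*, which passed the filter on low counts through the fynY531F libraries alone and so had to differ. *lepa* had 129 counts over the fynY531F libraries, 7 over Gal4 and 5 over WT at 3 dpf, and 44, 8 and 7 at 5 dpf. Its ratio to Gal4 by counts was 21.7 at 3 dpf (interval 10.3 to 55.1) and 6.13 at 5 dpf (interval 2.85 to 15.1). The edgeR call of *lepa* at 3 dpf (adjusted p = 6.6e-06) adds nothing to its counts, and at 5 dpf it failed the filter. *lepr*, the receptor, was at 2.18 CPM in fynY531F against 1.17 CPM in Gal4 larvae at 3 dpf (log2 0.92 ± 0.29, adjusted p = 0.0415).

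*socs3b* held 135 to 153 CPM in fynY531F and 21.1 to 25.5 CPM in Gal4 libraries at 3 dpf (log2 2.63 ± 0.07, adjusted p = 3.0e-10), and 90.9 to 114 against 27.8 to 36.1 CPM at 5 dpf (log2 1.65 ± 0.13, adjusted p = 0.00114). *socs3a* was higher by 2.59 on the log2 scale at 3 dpf (adjusted p = 4.8e-10) but was not called at 5 dpf, where fynY531F libraries spread from 64.8 to 271 CPM (adjusted p = 0.237). *stat3* was at 94.3 CPM in fynY531F and 40.2 CPM in Gal4 larvae at 3 dpf (log2 1.25 ± 0.07, adjusted p = 2.2e-07). At 5 dpf it was at 89.4 to 91.2 CPM in fynY531F and at 44.4 to 44.5 CPM in 3 of the Gal4 libraries, with 4.90 CPM in replicate 3 (log2 1.38 ± 0.53, adjusted p = 0.195; 1.02, adjusted p = 1.8e-05, without it). The kinase genes *jak2a* and *jak2b* were called at neither age. At 5 dpf 1 of the 6 pathway genes tested was called, *socs3b*, beside 4.60% of all genes. Without replicate 3 of Gal4 it was 2 of 6, with *stat3*, beside 22.7% of all genes.

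**Figure D3:**
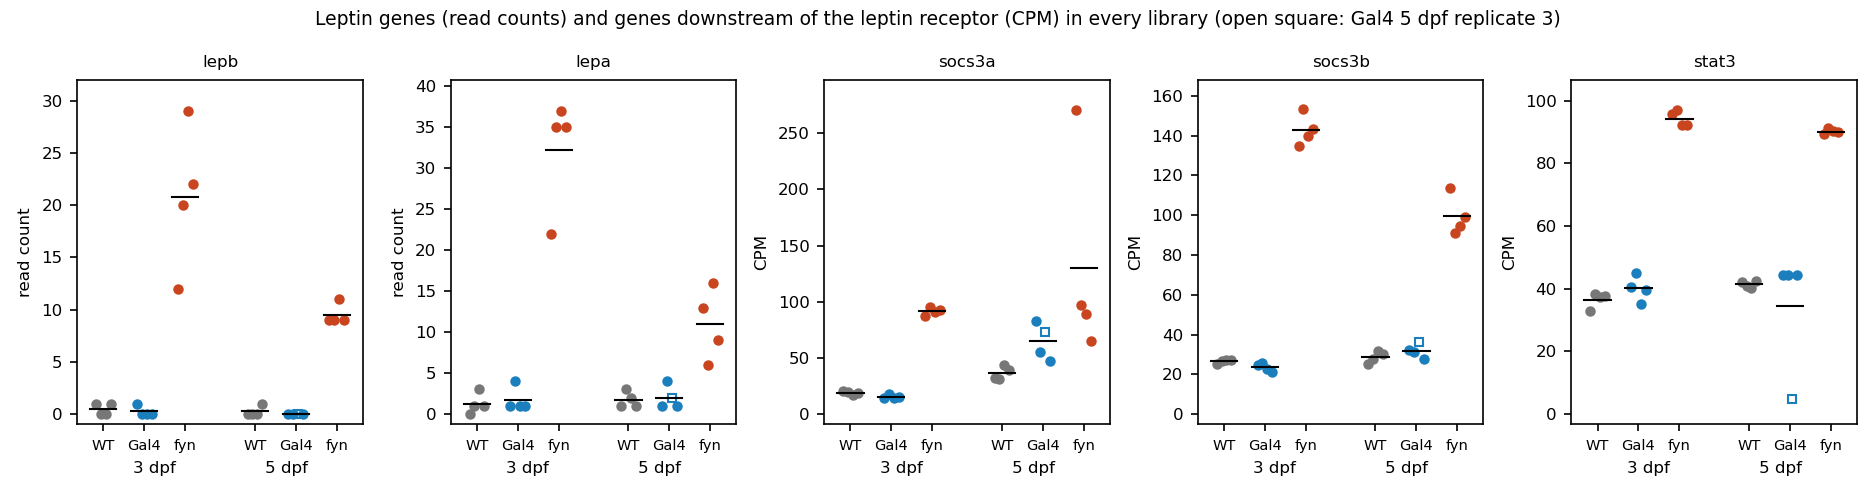
Read counts of *lepb* and *lepa* and CPM of *socs3a*, *socs3b* and *stat3* (vertical axes, linear, from 0) in every library by genotype and age; "fyn" stands for fynY531F, black bars are means and the open square is replicate 3 of Gal4 at 5 dpf. *lepb* has at most 1 count in any control library and at least 9 in every fynY531F library, and *stat3* is at 4.90 CPM in replicate 3 of Gal4.

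No listed gene was called between Gal4 and WT larvae, in comparisons where few genes were called at all. With edgeR 0 of the 8 members tested were called at 3 dpf, beside 4.79% of all genes, and 0 of 9 at 5 dpf, beside 0.0508%. Without replicate 3 of Gal4 it was again 0 of 9 at 5 dpf, beside 1.95%. At 3 dpf the *mmp2* libraries of Gal4 (239 to 262 CPM) did not overlap those of WT (215 to 234 CPM), though edgeR did not call the difference (log2 0.11 ± 0.05, adjusted p = 0.253). At an unadjusted p under 0.05 Gal4 and WT larvae differed in 1 of 8 members at 3 dpf, *timp2a*, beside 4301 of 19279 genes. At 5 dpf they differed in 0 of 9, beside 812 of 19671 genes. DESeq2 called 0 members at both ages, beside 9.16% of all genes at 3 dpf and 0.613% at 5 dpf. Against WT, 5 of 9 members were called in fynY531F larvae at 3 dpf (27.5% of all genes): *timp2b*, *timp4.1* and *lepb* (again past the filter through fynY531F libraries alone) were higher, and *mmp9* and *mmp13a* ENSDARG00000012395 lower. At 5 dpf 5 of 8 were called and all were higher (28.8% of all genes, 14.5% higher): *mmp2*, *mmp9*, *mmp14b*, *timp2b* and *timp4.1*.

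Between 3 and 5 dpf the listed genes took different courses. In WT larvae *mmp9* fell by 2.05 on the log2 scale (adjusted p = 4.4e-07), *mmp13a* ENSDARG00000012395 by 1.59, *mmp13a* ENSDARG00000114451 by 1.43 and *timp2b* by 0.84. These 4 were the calls among 8 members tested in WT, beside 58.0% of all genes. In Gal4 larvae the called members were also 4 of 8 (25.7% of all genes), again *mmp9* (-2.07), the 2 *mmp13a* genes (-1.18 and -1.67) and *timp2b* (-1.03). Without replicate 3 of Gal4 7 were called (59.0% of all genes), with *mmp2* (-0.26), *mmp14b* (-0.70) and *timp2a* (0.28) added.

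In fynY531F larvae 7 of 9 were called (52.3% of all genes). Of these, *lepb* passed the filter on low counts through its 3 dpf libraries, where it was high. The 2 *mmp13a* genes (-1.39 and -1.46), *timp2b* (-0.73) and *lepb* fell, while *mmp2* (0.59, adjusted p = 0.00091), *mmp14b* (0.82, adjusted p = 0.00013) and *timp4.1* (1.18, adjusted p = 0.00019) rose. *mmp9*, which fell in both controls, changed by -0.30 ± 0.24 (adjusted p = 0.314), and by -0.60 (adjusted p = 0.0114) without replicate 1 of fynY531F at 5 dpf. *timp4.2* rose from the handful of counts given above to 29, 69 and 52 in WT, Gal4 and fynY531F larvae. By counts this was 8.39-fold in WT (interval 2.60 to 43.0), 11.7-fold in Gal4 (interval 5.11 to 33.0) and 9.99-fold in fynY531F (interval 4.02 to 32.1). It was called in all 3 genotypes with no filter (adjusted p = 0.0015, 0.00775 and 0.00113). *syn2b*, which spans *timp4.2* on the opposite strand, was also at a higher level at 5 than at 3 dpf in Gal4 and fynY531F larvae. The part of *syn2b* reads in the counts of *timp4.2* was not tested.

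The interaction of genotype and age tested whether the fold over Gal4 differed between 3 and 5 dpf. It was called for 3 of 10 members, beside 4.15% of all genes tested (2.43% higher): *mmp2* (0.86 ± 0.15, adjusted p = 0.00401), *mmp9* (1.76 ± 0.33, adjusted p = 0.00728) and *mmp14b* (1.76 ± 0.38, adjusted p = 0.0173). All 3 differences were positive, so the fold over Gal4 was higher at 5 than at 3 dpf, and without replicate 3 of Gal4 they were 0.85, 1.80 and 1.53. The 3 calls held in each of the 16 fits that left out 1 library and with WT in place of Gal4 larvae as control (a fit added after seeing the data), and that of *mmp14b* was lost when libraries were scaled by totals alone (1.80, adjusted p = 0.0531). For *timp4.1* the difference was 1.17 ± 0.62 (adjusted p = 0.328), 0.83 (adjusted p = 0.0533) without replicate 3 of Gal4, and 0.92 (adjusted p = 0.0451) with WT as control, where 4 of 9 members were called (11.7% of all genes). For *lepb*, *timp2a*, *timp2b*, *timp4.2* and the 2 *mmp13a* genes it was not called.

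**Figure D4:**
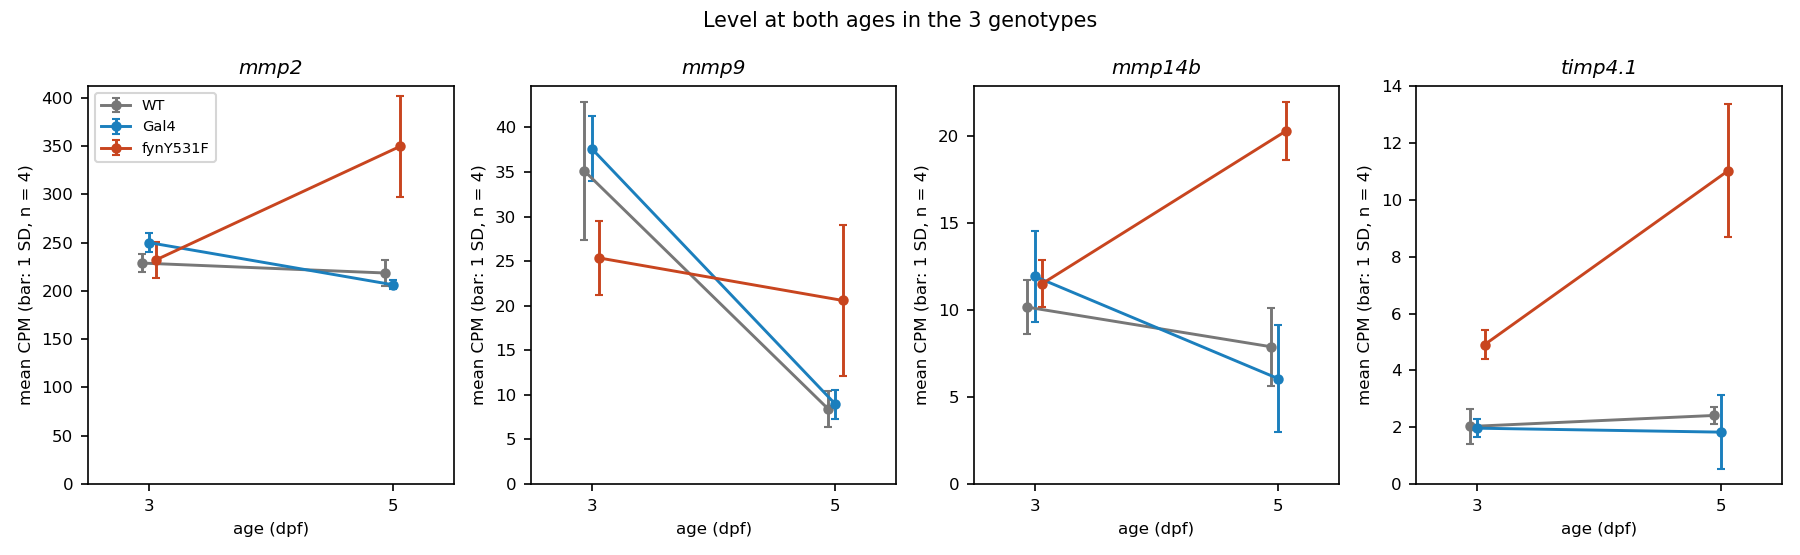
Mean CPM (vertical axes, linear, from 0; bars are 1 SD over 4 libraries) of *mmp2*, *mmp9*, *mmp14b* and *timp4.1* at 3 and 5 dpf in WT, Gal4 and fynY531F larvae. *mmp9* falls from 37.6 to 8.95 CPM in Gal4 larvae and from 25.4 to 20.6 CPM in fynY531F larvae, and *mmp14b* goes from 11.5 to 20.3 CPM in fynY531F larvae.

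Ordered by mean, *mmp2* and *mmp14b* had fynY531F larvae at 5 dpf first, with no overlap with the next group, and neighbours among the other 5 groups overlapped. *timp4.1* had fynY531F at 5 dpf (11.04 CPM) above fynY531F at 3 dpf (4.91 CPM) above the 4 control groups, whose neighbours overlapped. *timp2b* had fynY531F at 3 dpf first (49.6 CPM), then fynY531F at 5 dpf (29.9 CPM), whose libraries overlapped those of Gal4 at 3 dpf (26.8 CPM). *mmp9* had the 3 dpf groups first, then fynY531F at 5 dpf (20.6 CPM), and the 5 dpf controls last, apart from the rest. *lepb* had both fynY531F groups first, at 3 dpf and then at 5 dpf, apart from each other and from the controls.

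Of the other metalloproteinase and Timp genes in the tables, 18 in number, 13 were tested at 3 dpf and 14 at 5 dpf. At 3 dpf 1 was higher in fynY531F than in Gal4 larvae and 3 were lower, beside 8.88% and 9.73% of all genes. *mmp24*, a membrane-bound enzyme of neurons in mammals, was higher (0.22 ± 0.07, adjusted p = 0.0381). *mmp11b*, which encodes a stromelysin 3, was lower (-0.63 ± 0.09, adjusted p = 0.00045), as were *mmp23bb* (-0.60 ± 0.09, adjusted p = 0.00098) and *mmp30* (-0.44 ± 0.14, adjusted p = 0.0429). At 5 dpf *mmp30* alone was called, again lower (-1.03 ± 0.18, adjusted p = 0.0178), beside 4.60% of all genes. Without replicate 3 of Gal4 2 were higher and 3 lower, beside 22.7% of all genes called. *mmp11b* (1.09) and *mmp28* (0.76) were then higher, and *mmp23bb* (-0.50), *mmp30* (-0.87) and *timp4.3* lower. With replicate 3 kept, *mmp11b* had a fold of 2.46 at 5 dpf and missed the threshold (adjusted p = 0.0618), so its log2 values had opposite signs at the 2 ages, as those of *mmp9* did. The median over these genes was -0.06 at 3 dpf and 0.19 at 5 dpf (-0.18 without replicate 3).

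Of 9 genes of metalloproteinase activation and inhibition 8 were tested at each age, where 18.6% of all genes were called at 3 dpf and 4.60% at 5 dpf. Tissue plasminogen activator (*plat*), which makes plasmin from plasminogen, was higher in fynY531F than in Gal4 larvae at 3 dpf (0.63 ± 0.13, adjusted p = 0.00599) and at 5 dpf (1.33 ± 0.27, adjusted p = 0.0279). Plasminogen itself (*plg*) was higher at 5 dpf (0.89 ± 0.16, adjusted p = 0.0166) and *plaub*, of the urokinase type, lower at 3 dpf (-1.04 ± 0.26, adjusted p = 0.0163). The membrane-anchored inhibitor *reck*, the proprotein convertases *furina* and *furinb* and the inducer *bsg* were called at neither age, with or without replicate 3 of Gal4. Without that library 4 of 9 genes were higher at 5 dpf, *plat*, *plg* and *plaua* (2.59, adjusted p = 0.0103) among them, beside 22.7% of all genes called. Between Gal4 and WT larvae at 5 dpf only 8 were tested without it. A gene tested in fynY531F against Gal4 larvae alone passed the filter on low counts through fynY531F libraries. A call of such a gene adds nothing to its counts. The medians of the list were 0.05 and 0.34, against 0.00 and -0.01 over all genes.

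Neutrophils, macrophages and fibroblasts are known sources of metalloproteinases, and their markers were read in the same libraries. Over all genes, 18.6% were called against Gal4 at 3 dpf and 4.60% at 5 dpf (22.7% without replicate 3 of Gal4). Against WT the shares in fynY531F larvae were 27.5% at 3 dpf and 28.8% at 5 dpf. Of 4 neutrophil markers 3 were tested and none was called between fynY531F and Gal4 larvae at either age, and their sum was 56.5 to 74.2 CPM against 54.2 to 65.3 CPM at 3 dpf and 37.8 to 55.8 CPM against 42.7 to 57.5 CPM at 5 dpf. Of 5 macrophage markers none was called at either age and 2 were without replicate 3 of Gal4, and their sum at 5 dpf was 41.0 to 47.4 CPM in fynY531F, 17.9 to 31.6 CPM in Gal4 and 28.4 to 35.4 CPM in WT larvae. Against WT, 3 of the 5 macrophage markers were higher in fynY531F larvae at 3 dpf and 4 at 5 dpf (median log2 0.58), *mpeg1.1* by the most at 5 dpf (1.70), when 5 members were higher too, and 2 of 3 neutrophil markers were higher at 3 dpf and 0 at 5 dpf. In Gal4 against WT larvae at 3 dpf all 5 macrophage markers (median 0.40) and all 3 neutrophil markers tested (median 0.24) were above 0. None of these was called, beside 4.79% of all genes. The macrophage median of fynY531F larvae at 3 dpf was 0.48 against WT and 0.14 against Gal4. For neutrophil markers it was 0.34 and 0.12. Of 4 microglia markers 3 were higher than in Gal4 at 3 dpf (*apoeb* at log2 0.48, *havcr1* at 0.64 and *p2ry12* at 0.70). At 5 dpf none was called, and 3 were higher without replicate 3. Their sums at 3 dpf were 1475 to 2056 CPM in fynY531F, 1155 to 1418 CPM in Gal4 and 804 to 1026 CPM in WT larvae. At 5 dpf they were 1355 to 1735 (median 1460), 782 to 1953 (median 889) and 704 to 826 CPM (median 734) in the same order. Against WT, 2 of the 4 microglia markers were higher in fynY531F larvae at each age. In Gal4 against WT larvae at 3 dpf 1 was higher, beside 4.79% of all genes called.

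All 4 fibroblast markers were above 0 in Gal4 against WT larvae at 3 dpf and 1 was called, beside 4.79% of all genes. In fynY531F against WT larvae at 3 dpf 2 of 4 were lower (median log2 -0.17). Against Gal4 3 were lower at 3 dpf (*col1a1a* at log2 -0.41, *col1a2* at -0.67 and *pdgfra* at -0.22) and none was called at 5 dpf. At 3 dpf *mmp9* was lower than in Gal4 too, while *timp2b*, *timp4.1* and *lepb* were higher. The muscle markers tested, 3 at 3 dpf and 4 at 5 dpf, were all below 0. At 3 dpf 3 were called, *acta1b* (-0.70), *tnnt3b* (-0.64) and *myhz2* (-0.55), beside 18.6% of all genes. At 5 dpf 2 were called, beside 4.60% of all genes, *acta1b* (-1.11) and *mylpfa* (1 count over the fynY531F libraries against 117 over Gal4). *mylpfa* passed the filter through Gal4 libraries alone, so its call adds nothing to its counts. Without replicate 3 of Gal4 all 4 were called lower at 5 dpf, *mylpfa* again through Gal4 libraries alone, beside 22.7% of all genes. In Gal4 against WT larvae at 3 dpf 2 of 3 muscle markers were higher, beside 4.79% of all genes called. The sum of the 4 muscle markers at 5 dpf was 1618 to 3234 CPM in fynY531F larvae. It was 4024 to 9462 CPM in Gal4 (median 4410 CPM) and 3269 to 4150 CPM in WT larvae. The median log2 fold change of fynY531F larvae at 5 dpf was -0.72 against WT and -1.28 against Gal4 (-0.91 without replicate 3). Of 3 epidermis markers *krt5* was lower at 3 dpf (-3.21), while the median of the 3 against Gal4 was -0.03, with 1 above 0. Their sum at 3 dpf was 9441 to 12280 CPM in fynY531F, 10070 to 10450 CPM in Gal4 and 8069 to 9705 CPM in WT larvae. At 5 dpf none of the 3 was above 0 in Gal4 against WT larvae, with a median of -0.41. Without replicate 3 of Gal4 that median was -0.61 and 2 were called lower, beside 1.95% of all genes. In fynY531F against WT larvae the epidermis median at 5 dpf was 0.30 and none was called. Against Gal4 at 5 dpf, when *mmp2* and *mmp14b* were higher, all 3 epidermis markers were above 0 (median 0.92) and none was called. Without replicate 3 of Gal4 the median was 1.12 and *cyt1* (0.91) was called. Of 6 neuron markers *elavl3* (0.39), *elavl4* (0.52) and *gap43* (2.03) were higher at 3 dpf and none was called at 5 dpf. Without replicate 3 of Gal4, *gap43* (0.61) was higher at 5 dpf and *snap25a* (-0.41) and *snap25b* (-0.48) lower. Against WT, 3 neuron markers were higher and 2 lower at 3 dpf, with 1 higher and 2 lower at 5 dpf. In Gal4 against WT larvae at 3 dpf 3 of 6 neuron markers were lower, with a median of -0.29, beside 4.79% of all genes called. Among the liver genes *tfa* was lower at 3 dpf (-0.66), and without replicate 3 of Gal4 *apoa2* (0.79) was higher and *fabp10a* (-1.26) lower at 5 dpf. No endothelium marker was called at either age with replicate 3 of Gal4 kept, and *pecam1* (-0.55) was lower at 5 dpf without it. No lens marker was called at either age, with or without it. No marker on these lists was at 0 in every library of a group. The part of any of these cell types in the levels of the listed genes was not tested.

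The genes whose levels ran most like those of a listed gene were found by Pearson's r of log2(CPM + 0.5) over the 24 libraries. The search took the 20586 genes that passed the filter on low counts over all 6 groups. It left out genes without a symbol and those with the listed gene's own symbol, so the 2 *mmp13a* genes were not compared. The libraries share age and genotype groups, so r describes these libraries only. For *timp4.1* the first 3 genes were *chd4b* (0.938), *fn1b* (0.912) and *tnfrsf1b* (0.910), of which *fn1b* stayed among the first 3 without replicate 3 of Gal4 at 5 dpf. For *timp2b* they were si:dkey-8k3.2 (0.947), si:ch211-136a13.1 (0.946) and *paox1* (0.941), and 2 of these stayed. For *lepb* they were *sall1b* (0.977), CU207281.2 (0.976) and si:ch73-265d7.2 (0.971), and 2 stayed. For *mmp9* they were *ccdc88b* (0.940), LO017850.1 (0.938) and *pla2g15* (0.935), and none stayed. For *mmp13a* ENSDARG00000012395 they were *xpc* (0.937), *samd7* (0.930) and *lyve1a* (0.928), none of which stayed, and for *mmp13a* ENSDARG00000114451 *kctd10* (0.934), *hebp2* (0.921) and *usp39* (0.918), of which 1 stayed.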

How the data were processed

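Per the labels' processing notes, reads were aligned to GRCz11 with HISAT2 2.0.5, with StringTie 1.3.3b and featureCounts 1.5.0-p3 also named. The authors deposited, for each of 9 pairs of groups, raw read counts per gene in each library, without normalization, beside normalized values and DESeq2 results of their own. The gene lengths in the deposited tables were used for levels per kilobase. The fold changes and p-values of the authors' own comparisons, 27 tables that hold subsets of the same genes and 144 further per-sample columns were left out. Libraries shared by several tables had the same counts in all of 1205864 entries. The counts of each library were joined over the tables that hold it. Genes missing from all of these were given a count of 0 in that library (13752 entries).

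Each comparison took its own groups. Genes were kept with filterByExpr (minimum count 10), scaled with TMM and tested with edgeR 4.0.16, 2-sided, and the interaction took the 4 groups of Gal4 and fynY531F larvae. Each SE is the absolute log2 fold change over the root of its F statistic. CPM used TMM factors over all 24 libraries. Ratios of sparse genes came from counts over library totals with exact conditional binomial 95% intervals, which cover counting error only. Alternatives were DESeq2 1.42.0, its size factors, library totals alone, no filter, all 6 groups in 1 fit, replicate blocks, each library left out and, added after seeing the data, WT in place of Gal4. R 4.3.3, limma 3.58.1, Python 3.11.15, numpy 2.4.6, pandas 2.3.3, scipy 1.17.1 and matplotlib 3.10.9 were used. The steps were tested on simulated data.

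The members, the 12 gene lists and the tests were chosen with earlier results of these data known. Genes named beside the members are those of the lists that were called between fynY531F and Gal4 larvae at 3 or 5 dpf, those that overlap a member, and the 3 with the highest r for each of *timp4.1*, *timp2b*, *mmp9*, *mmp13a* and *lepb*. Others were named after their values were seen: *mmp14a*, *timp4.3*, *mmp28*, *jak2a*, *jak2b*, *mpeg1.1*, the uncalled activation genes and those called only without replicate 3 of Gal4 at 5 dpf. Of the list symbols, *leprot*, *leprotl1*, *slc7a7* and *fli1* were not matched, and 1 gene of the activation list is not reported here. Sequences are not shown. Each library is a pool of larvae, and p-values measure the spread between 4 pools.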

Additional observations from a re-analysis of the deposited data

Results flagged for a closer look

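The log2 fold change over Gal4 larvae differed between 3 and 5 dpf, by the edgeR interaction test, for *mmp2* (0.86), *mmp9* (1.76) and *mmp14b* (1.76).

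In 7 of 66 checks of 4 libraries each, 1 library lay far from the other 3 of its group. For normally distributed values chance alone gives about 1 in 20. At 3 dpf these were replicate 3 of WT for *mmp2* (215 CPM, the lowest), replicate 1 of WT for *timp2a* (99.5 CPM, the highest), replicate 2 of WT for *timp2b* (25.5 CPM, the highest) and for *timp4.2* (0 CPM, the lowest), replicate 1 of Gal4 for *lepb* (0.0823 CPM, a single count) and replicate 1 of fynY531F for *lepb* (0.903 CPM, the lowest). At 5 dpf it was replicate 4 of WT for *lepb* (0.0747 CPM, a single count). Those of *lepb* in the controls and of *timp4.2* rest on 0 or 1 count.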

How the results depend on the processing

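Of 46 member results tested in the main fit and called there or in some alternative, 35 were called in the main fit. Over 680 alternative values, 0 changed sign, 623 stayed on their side of the threshold, 34 lost the call and 23 gained it. A further 41 member results tested in the main fit were called in no fit, and 21 of these changed sign in some fit. Left out of these counts are results not tested in the main fit. Among them are *lepb* against Gal4 and WT at 5 dpf and *timp4.2* between the ages, which alternatives called. At 5 dpf between fynY531F and Gal4 larvae, 3 of 9 members were called in the main fit, beside 4.60% of all genes. It was 6 of 11 with DESeq2 (10.7% of all genes) and 6 of 10 with all 6 groups in 1 fit (5025 of 20586 genes). Among the 6 in both was *lepb*, with 0 counts in the Gal4 libraries, so its calls add nothing to its counts. With 1 library left out it was 1 to 5 of 9 members (341 to 4562 genes). Against WT at 3 dpf it was 5 of 9 (27.5% of all genes), and 3 of 10 with all 6 groups in 1 fit (1897 of 20586 genes). With 1 library left out it was 3 to 5 of 9 (3918 to 5236 genes). *lepb* was among the members called in each of these fits, and its calls add nothing to its counts. Between the ages in Gal4 larvae it was 4 of 8 (25.7% of all genes) and 7 of 10 with DESeq2 (29.1%). It was 8 of 10 with all 6 groups in 1 fit (9429 of 20586 genes). *timp4.2*, with 6 counts at 3 dpf and 69 at 5 dpf, was among the 7 and the 8. With 1 library left out it was 4 to 7 members (3335 to 11617 genes).

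Over all genes, fynY531F against Gal4 at 5 dpf had 909 calls, 2456 with DESeq2, 5025 with all 6 groups in 1 fit and 341 to 4562 with 1 library left out, the highest without replicate 3 of Gal4. Gal4 against WT had 923 at 3 dpf, 1465 with DESeq2, 0 with all 6 groups in 1 fit (1751 at an unadjusted p under 0.05) and 55 to 1521 with 1 library left out, the lowest without replicate 3 of WT. At 5 dpf it had 10, 0 with library totals alone (713 at an unadjusted p under 0.05), 134 with DESeq2, 92 with all 6 groups in 1 fit and 0 to 389 with 1 library left out, the highest without replicate 3 of Gal4. The ages in Gal4 larvae had 5029, 9429 with all 6 groups in 1 fit and 3335 to 11617 with 1 library left out. The interaction had 844, 1758 with DESeq2, 1826 with all 6 groups in 1 fit, 2380 with WT in place of Gal4 and 445 to 3262 with 1 library left out. With all 6 groups in 1 fit, fynY531F against Gal4 at 3 dpf had 1317 calls (3572 in the main fit), against WT 1897 at 3 dpf (5325) and 3449 at 5 dpf (5700), and the ages in WT 7560 (11352). The causes were not tested.

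Library totals alone moved the median of all genes to 0.14 between fynY531F and Gal4 at 5 dpf, to -0.11 between Gal4 and WT at 5 dpf, and to -0.15, -0.19 and -0.10 between the ages in WT, Gal4 and fynY531F larvae. The share of calls that were higher went from 38.0% to 16.8% for Gal4 against WT at 3 dpf, and from 50.5% to 35.8%, 59.7% to 42.7% and 51.6% to 41.1% between the ages in WT, Gal4 and fynY531F larvae.

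Libraries of different groups share only a replicate number. Same-numbered libraries deviated from their group means with correlations of -0.20 to 0.17, and in 0 of 9 comparisons was every correlation over 0.1. With the replicate number as a block, 0 of 9 members were called between fynY531F and Gal4 larvae at 5 dpf, beside 178 of 19746 genes. At an unadjusted p under 0.05 it was 5 of 9 with the block, beside 3137 genes. Without the block DESeq2 called 6 of 11 members, *lepb* among them, beside 10.7% of all genes. Over all genes, Gal4 against WT had 393 calls at 3 dpf and 0 at 5 dpf (589 at an unadjusted p under 0.05) with the block.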
